A study of Mus musculus with 4 samples.

Results

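The 10 genes described here encode the core enzymes of mitochondrial fatty acid oxidation: Cpt1a, Slc25a20 and Cpt2 of the carnitine shuttle, the acyl-CoA dehydrogenases Acadvl, Acadl and Acadm, the trifunctional protein subunits Hadha and Hadhb, the thiolase Acaa2 and the electron carrier Etfdh. They were taken by gene symbol from a table of 55414 genes. All 10 matched a single row each and all 10 passed the filter on low counts, with 341 to 4890 counts per library. Their RNA was measured in macrophages from the mouse peritoneal cavity, kept in culture for 24 h with 0.5 mg/ml LUP or, as the vehicle group, in complete medium without it, with 2 libraries in each group. LUP is used as the labels write it, since they do not spell it out. Mouse strain, sex and age are not given in the sources used here. Separate mice or cultures are not stated for the replicates, so p-values measure only the spread between these libraries, which may be technical.

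Fatty acids enter mitochondria as carnitine esters. CPT1A on the outer membrane makes the acylcarnitine and is the step that malonyl-CoA inhibits, the carrier SLC25A20 exchanges it across the inner membrane, and CPT2 turns it back into acyl-CoA. In the matrix each turn of the spiral shortens the chain through a dehydrogenase chosen by chain length, a hydratase, a second dehydrogenase and a thiolase, and electrons of the first dehydrogenation reach ubiquinone through electron transfer flavoprotein and ETFDH. In macrophages this pathway is commonly associated with alternative activation and resident tissue states, and glycolysis with inflammatory activation. PPAR nuclear receptors, their coactivator PGC-1 and the estrogen-related receptor alpha are known activators of these genes in tissues that burn fat.

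The libraries held 19949818 to 23617618 counts. Replicates of a group were distinct libraries: their counts differed with a chi-square of 2.67 (vehicle) and 3.50 (LUP) for each degree of freedom, where sampling alone gives about 1. A gene was called where edgeR's quasi-likelihood test gave an adjusted p below 0.05. Of 13355 genes that entered the test 50.8% were called, with 27.1% rising and 23.7% falling under LUP. Called genes that changed at least 2-fold made up 11.3% of the tested genes. Of the calls, 53.37% were higher with TMM scaling, 41.36% after quantile normalization and 43.97% with limma on log2(TPM + 1). Macrophage genes were abundant in every library, with 21560 to 27370 TPM (transcript abundance per length, scaled to a fixed library total) summed over 8 markers, among them Adgre1, Csf1r, Cd68 and Lyz2. Most of this sum was Lyz2 and Cd68. Of the 8 markers 5 rose, Adgre1 by 4.86-fold and Csf1r by 2.03-fold among them, and Lyz2 and Mertk fell. Markers of large peritoneal macrophages were low, with a sum over 8 genes of 22.9 and 20.4 TPM with vehicle and 26.6 and 26.4 TPM with LUP. In that list Timd4 and Prg4 rose and Gata6 fell, from 2.67 and 3.59 to 1.34 and 1.10 TPM. Of 6 adipocyte markers, 5 were at 0 in all libraries.

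Within this widespread response the fatty acid oxidation genes moved little. With LUP, 4 of the 10 fell (Acadl, Hadhb, Hadha and Cpt1a), none rose and 6 were not called. The share called, 40.0%, lay under the 50.8% of all tested genes, while the share called lower, also 40.0%, compares with 23.7%. The largest fall was 20.2% and no member changed 2-fold. The median log2 change of the 10 was -0.13, against 0.00 for all tested genes. The median size of change, disregarding direction, was 0.15 on the log2 scale against 0.30. The genes were not matched for level: those tested include some with few counts and wide errors, such as Cpt1b (20 to 33 counts, SE 0.41). In TPM, the groups did not overlap for 7 members, all lower with LUP; among all tested genes 42.3% were lower and 27.6% higher without overlap. In limma on log2(TPM + 1) the median log2 change was -0.204 for the members and -0.075 for all tested genes. Added over the 10 genes, the level was 463 and 476 TPM with vehicle and 392 and 408 TPM with LUP, 14.8% lower on the means. The exact two-sided permutation test of this sum gave p = 0.33, the smallest that 2 libraries against 2 allow. In RNA from a whole culture, fewer cells of a kind and less RNA per cell cannot be told apart.

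**Figure D1:**
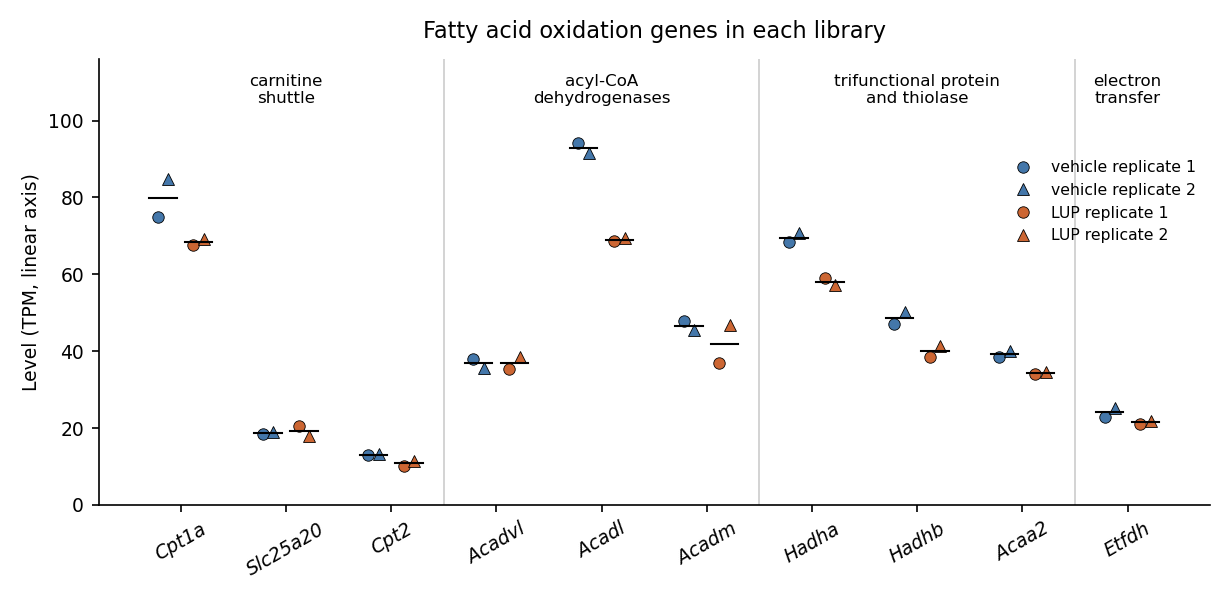
Level of each gene in each library in TPM on a linear axis, vehicle in blue and LUP in orange, circles for replicate 1 and triangles for replicate 2, with the group mean as a bar. Acadl shows the widest gap, from 91.54 and 94.15 TPM with vehicle to 68.63 and 69.45 TPM with LUP, while the libraries of Slc25a20, Acadvl and Acadm overlap between groups.

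**Figure D2:**
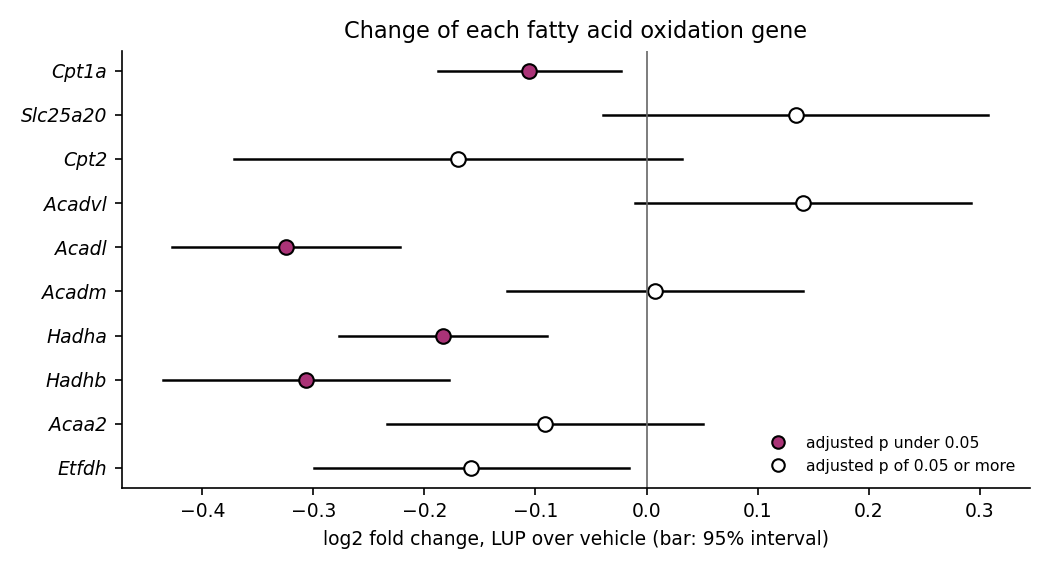
Log2 fold change of LUP over vehicle for each gene, from edgeR's quasi-likelihood fit, with its 95% interval not adjusted for the number of genes; filled points have an adjusted p under 0.05. The 4 filled points, Acadl, Hadhb, Hadha and Cpt1a, lie between -0.32 and -0.11, and Slc25a20, Acadvl and Acadm lie at or above 0.

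The carnitine shuttle carried a single small call. Cpt1a, the gated entry step, stood at 74.93 and 84.85 TPM with vehicle and 67.51 and 69.16 TPM with LUP, so that its groups did not overlap. It fell by 0.11 on the log2 scale (SE 0.039, edgeR adjusted p = 0.0319). That call was kept under 5 of 14 alternative settings and lost under 9, with adjusted p-values from 0.000798 to 0.239, although the change was downward under all 14. It was lost without LUP replicate 2 (edgeR adjusted p = 0.0579), without vehicle replicate 1 (0.106) and without vehicle replicate 2 (0.239). Cpt2, the inner-membrane transferase, stood at 13.03 and 13.17 TPM with vehicle and 10.24 and 11.30 TPM with LUP. Its lower level was not called (log2 change -0.17, SE 0.096, edgeR adjusted p = 0.152), except without LUP replicate 2 (log2 change -0.27, edgeR adjusted p = 0.0333). Slc25a20, the carnitine-acylcarnitine carrier, had 18.32 and 18.91 TPM with vehicle and 20.65 and 18.02 TPM with LUP, and these groups overlapped. Its log2 change of 0.13 had a 95% interval of -0.04 to 0.31 (edgeR adjusted p = 0.188). Cpt1a made up 96.3% to 98.7% of the TPM of the 3 CPT1 genes in every library, since Cpt1b, the muscle form, and Cpt1c, the form known from brain, stayed under 2 TPM.

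The acyl-CoA dehydrogenases, which open each turn of the spiral, split by gene. Acadl, the long-chain dehydrogenase, was the most abundant member and had the largest fall. Its counts were 2121 and 2369 with vehicle and 1887 and 1860 with LUP, and its TPM went from 92.8 ± 1.85 to 69.0 ± 0.58 (SD, n = 2). It fell by 0.32 on the log2 scale (SE 0.049, edgeR adjusted p = 1.7e-05), and it was called lower under all 14 alternative settings. Acadvl, the very-long-chain dehydrogenase of the inner membrane, stood at 38.01 and 35.73 TPM with vehicle and 35.37 and 38.38 TPM with LUP. Its log2 change was 0.14 from the counts (95% interval -0.01 to 0.29, edgeR adjusted p = 0.113). It was called higher without LUP replicate 1 (log2 change 0.24, edgeR adjusted p = 0.00908), and from TPM the change was -0.0003. In the GENCODE M21 annotation, 1151 exon bases of Acadvl are shared with Dvl2, a Wnt signalling gene on the opposite strand, which fell by 0.49 on the log2 scale (edgeR adjusted p = 2.16e-05). Whether the libraries kept the strand is not stated, so reads of Acadvl and Dvl2 may not be told apart. Acadm, the medium-chain dehydrogenase, had 897 and 1072 counts with vehicle and 1033 and 1032 with LUP. Its log2 change of 0.01 had a 95% interval of -0.13 to 0.14 (edgeR adjusted p = 0.932), and its sign changed between settings.

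Ratios between these genes are given as a description, since Acadl and Acadvl were set against each other after their changes were seen. There were 2.38 and 2.42 counts of Acadl for each count of Acadvl with vehicle, and 1.82 and 1.66 with LUP. Against Acadm the ratio of counts was 2.37 and 2.21 with vehicle and 1.83 and 1.80 with LUP. Neither ratio overlapped between groups. Ratios of counts also carry the lengths of the genes, which are the same in both groups only if transcript forms are.

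Hadha and Hadhb, the subunits of the trifunctional protein that carries out the later steps on long chains, both fell. Hadha, which holds the hydratase and hydroxyacyl-CoA dehydrogenase activities, had 68.32 and 70.65 TPM with vehicle and 59.00 and 57.18 TPM with LUP. It fell by 0.18 on the log2 scale (SE 0.044, edgeR adjusted p = 0.002) and was called under all 14 alternatives. Hadhb, the thiolase subunit, had 47.19 and 50.22 TPM with vehicle and 38.44 and 41.39 TPM with LUP. It fell by 0.31 (SE 0.061, edgeR adjusted p = 0.000341), and the call was lost only with limma on log2(TPM + 1) without a filter on low values (limma adjusted p = 0.0687). The ratio of Hadha to Hadhb TPM was 1.45 and 1.41 with vehicle and 1.54 and 1.38 with LUP, so this ratio overlapped between groups. The ratio of their counts was 2.45 and 2.45 with vehicle and 2.57 and 2.77 with LUP and did not overlap (exact two-sided permutation p = 0.33, the smallest possible).

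These subunit genes lie head to head on mouse chromosome 5. Their RefSeq promoter windows, from 250 bases before the start of the gene to 50 after it, overlap by 228 identical bases. The Hadhb window is printed because it holds most of the promoter of both falling subunits, and those of Acadl and Acadvl because these genes had the largest fall and the highest fitted change. Each is on GRCm38.p6 and in the direction of its gene, Hadhb at chr5:30155003-30155302 on the plus strand, Acadl at chr1:66863260-66863559 on the minus strand and Acadvl at chr11:70015379-70015678 on the minus strand. Capitals mark matches to the GC box described next.
Hadhb: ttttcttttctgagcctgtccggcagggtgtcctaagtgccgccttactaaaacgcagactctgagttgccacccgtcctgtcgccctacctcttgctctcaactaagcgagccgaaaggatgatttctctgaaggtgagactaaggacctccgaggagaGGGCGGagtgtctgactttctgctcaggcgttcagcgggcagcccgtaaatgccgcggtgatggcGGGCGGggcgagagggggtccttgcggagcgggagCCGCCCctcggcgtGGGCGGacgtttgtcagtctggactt
Acadl: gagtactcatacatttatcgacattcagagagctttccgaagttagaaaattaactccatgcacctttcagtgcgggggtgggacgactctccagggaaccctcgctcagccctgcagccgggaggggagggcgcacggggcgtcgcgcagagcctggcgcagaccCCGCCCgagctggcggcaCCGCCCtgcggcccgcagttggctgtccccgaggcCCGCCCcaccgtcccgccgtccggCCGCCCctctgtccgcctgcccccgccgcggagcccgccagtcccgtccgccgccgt
Acadvl: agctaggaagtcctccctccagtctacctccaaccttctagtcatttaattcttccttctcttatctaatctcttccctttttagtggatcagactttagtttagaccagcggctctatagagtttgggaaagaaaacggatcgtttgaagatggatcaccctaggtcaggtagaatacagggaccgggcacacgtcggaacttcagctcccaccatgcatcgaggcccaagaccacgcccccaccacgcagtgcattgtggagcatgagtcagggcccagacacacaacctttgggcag

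RefSeq windows were found for 9 of the 10 members. Each was searched on both strands for the GC box GGGCGG bound by Sp1-type factors, the ETS site CCGGAAG of GABP, the NRF1 site GCGCNTGCGC, the estrogen-related receptor site TCAAGGTCA, and the PPAR element, a direct repeat of AGGTCA with a single base between the copies. The GC box was present in 7 of 9 windows and in 35.7% of the 32851 windows of all genes. The only match in Hadha is the same site as the match at base 161 of the Hadhb window, so it is counted in both. The GC content of the windows was not allowed for. Acadl and Hadhb each held 4 matches, and Acadvl and Acadm held none. Matches were also present in Hadha and Cpt1a, which were called lower, and in Cpt2, Slc25a20 and Etfdh, which were not called. GC made up 70.3% of the Acadl window, 60.7% of that of Hadhb and 50.7% of that of Acadvl, with a median of 52.7% over all windows. In the other member windows it ran from 57.3% (Cpt2 and Etfdh) to 62.3% (Acadm and Cpt1a). The GABP site was found in Cpt2 and Slc25a20 (8.86% of all windows) and the NRF1 site in Etfdh (4.60%). No member window held the estrogen-related receptor site or the PPAR repeat, which were present in 0.423% and 0.0396% of all windows. The windows are short, and a match is a description of letters only.

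The remaining members, the general mitochondrial thiolase and the electron carrier, were lower in TPM without a call. Acaa2, which splits off acetyl-CoA, had 38.43 and 40.01 TPM with vehicle and 34.03 and 34.56 TPM with LUP. Its log2 change of -0.09 had a 95% interval of -0.23 to 0.05 (edgeR adjusted p = 0.279). Etfdh, which passes the electrons to ubiquinone, had 22.98 and 25.15 TPM with vehicle and 21.09 and 21.80 TPM with LUP. Its log2 change of -0.16 missed the threshold (SE 0.067, edgeR adjusted p = 0.0594). It was called lower with scaling by library size alone (edgeR adjusted p = 0.0253) and after quantile normalization (limma adjusted p = 0.00578), as was Acaa2 in the latter (limma adjusted p = 0.0272).

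On the TPM scale, which accounts for length, the members spanned 7.09-fold with vehicle and 6.41-fold with LUP. With vehicle the order of mean levels ran from Acadl (92.8 TPM) through Cpt1a (79.9), Hadha (69.5), Hadhb (48.7), Acadm (46.7), Acaa2 (39.2), Acadvl (36.9), Etfdh (24.1) and Slc25a20 (18.6) to Cpt2 (13.1 TPM). Of these neighbours, only the libraries of Hadhb and Acadm overlapped. With LUP, Acadl (69.0 TPM) and Cpt1a (68.3 TPM) overlapped, and Acadm (41.9 TPM) stood between Hadha (58.1 TPM) and Hadhb (39.9 TPM), overlapping the latter. Acadvl (36.9 TPM) stood above Acaa2 (34.3 TPM) with LUP, the reverse of their order with vehicle, and their libraries did not overlap in either group. Counts and TPM did not move together for every gene. Dividing counts by TPM and scaling to the table's gene lengths gave an implied transcript length for Acadm of 1672 and 1828 bases with vehicle and 2044 and 1653 bases with LUP. For Hadhb the implied length was 1963 and 1908 bases with vehicle and 1903 and 1661 bases with LUP. For Acadl it stayed between 2005 and 2012 bases and for Acaa2 between 1517 and 1524 bases in the 4 libraries. The scaling was set for each library, so it removes any offset between counts and TPM common to that library. The log2 change of Acadl was -0.32 from counts and -0.42 in limma on log2(TPM + 1). That of Acaa2 was -0.09 and -0.19.

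**Figure D3:**
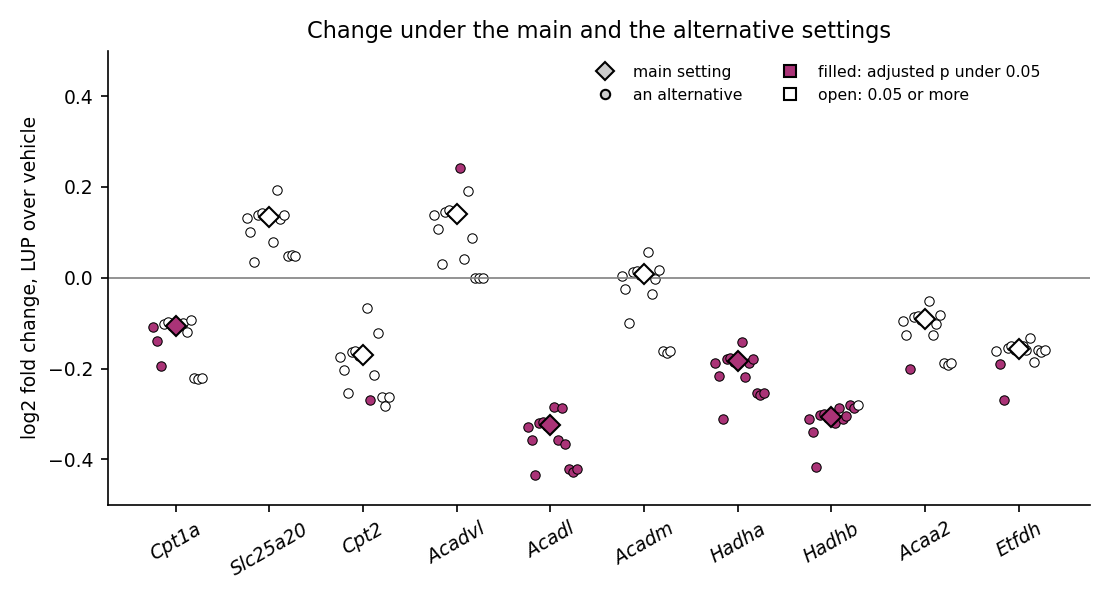
Log2 fold change of each gene under the main setting (diamond) and 14 alternatives (circles); filled symbols have an adjusted p under 0.05. Acadl and Hadha are filled throughout, and Hadhb in all but a single alternative. Cpt1a is filled in 5 of its alternatives, and the points of Acadm lie on both sides of 0.

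Genes around the spiral were called in both directions. Of 131 further genes in 15 pathway lists, 122 were tested, 43 rose and 37 fell, 65.6% in all, beside 50.8% of all tested genes. Of 4 other matrix enzymes of the spiral, 3 rose and none fell (median log2 change 0.28). Among all tested genes 27.1% were called higher. Hsd17b10, a short-chain hydroxyacyl-CoA dehydrogenase, went from 68.77 and 67.24 to 78.87 and 82.29 TPM (log2 change 0.35, edgeR adjusted p = 0.000259). Hadh, the hydroxyacyl-CoA dehydrogenase for medium and short chains, rose by 0.25 and Acat1, the acetoacetyl-CoA thiolase, by 0.31 on the log2 scale. The short-chain hydratase gene Echs1 had a log2 change of -0.09 and was not called. With DESeq2 only 1 of the 4 rose. After quantile normalization and with limma on TPM 1 rose and 1 fell, and with library size alone 3 rose and 1 fell.

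Among the other acyl-CoA dehydrogenases 3 of 9 rose and 3 fell. Acads, the short-chain dehydrogenase, had 47.50 and 48.28 TPM with vehicle and 34.70 and 33.15 TPM with LUP, a log2 change of -0.33 (edgeR adjusted p = 0.000264) close to that of Acadl. Acadsb, which acts on short branched chains, rose by 0.27 from the counts and had a log2 change of -0.08 in limma on log2(TPM + 1). Acad9, known for its part in complex I assembly, rose by 0.25, a call kept under 7 of 14 alternatives. Over all settings the number that rose ran from 0 to 3 and the number that fell from 1 to 3. Auxiliary enzymes for unsaturated and odd-chain acids had 2 higher and 2 lower of 8. The isomerase genes Eci1 and Eci2 rose by 0.78 and 0.44, whereas the dienoyl-CoA isomerase Ech1 fell by 0.26 and Pccb, a subunit of propionyl-CoA carboxylase, by 0.70 on the log2 scale.

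Of the 6 partners of ETFDH 3 fell and 1 rose, and over all settings 2 to 5 fell and 0 to 1 rose. Etfa and Etfb, the subunits of electron transfer flavoprotein, had log2 changes of -0.05 and -0.17 and were not called. Etfrf1, a regulator of the flavoprotein, fell by 0.42 and Slc25a32, the mitochondrial carrier for FAD and folate, by 0.42 on the log2 scale, while Flad1, which makes FAD, rose by 0.28. In the carnitine list, the related transporter genes went apart. Slc22a4 rose by 0.60 on the log2 scale (edgeR adjusted p = 1.11e-06). Slc22a5, the carnitine importer, fell by 0.29 (edgeR adjusted p = 0.0456), a call kept under 5 of 14 alternatives and lost without each of the 4 libraries in turn (adjusted p up to 0.331 over the alternatives). The other 3 genes were not called.

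Among the genes of fatty acid uptake, binding and activation, 5 of 12 tested rose and 5 fell, with a median log2 change of -0.13. Acsl1, a long-chain acyl-CoA synthetase that activates fatty acids, had 23.23 and 23.44 TPM with vehicle and 173 and 149 TPM with LUP, a 7.27-fold rise (edgeR adjusted p = 8.5e-19). Acsl5 rose 1.75-fold and Acsl4 1.53-fold, and Acsl3 was not called. The binding protein genes went apart: Fabp4 fell by 1.75 on the log2 scale and Fabp5 by 0.35, from 5290 and 5272 to 3608 and 4134 TPM, while Fabp3 rose 4.15-fold. Cd36, the fatty acid scavenger receptor, went from 649 and 664 to 474 and 443 TPM. Genes of triglyceride breakdown fell in 3 of 5 tested cases and rose in 1. Pnpla2, adipose triglyceride lipase, had 121 and 119 TPM with vehicle and 60.9 and 59.7 TPM with LUP, and Lipa, lysosomal acid lipase, fell by 0.48 on the log2 scale. Lipe, hormone-sensitive lipase, rose by 0.47 from a low level of 10.59 and 12.30 TPM.

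The genes listed here as PPAR targets outside the spiral moved in a single direction, in a list made with earlier results of these data known. Of 8 tested, 7 fell and none rose (median log2 change -0.82), beside 23.7% of all tested genes called lower. Over all settings 6 to 8 fell and none rose. Plin2, the lipid droplet coat protein, went from 1334 and 1342 to 692 and 663 TPM and fell by 0.85 on the log2 scale. Ucp2, an inner-membrane carrier, went from 429 and 458 to 236 and 233 TPM, and Angptl4, an inhibitor of lipoprotein lipase, fell by 1.36. Acot2, a mitochondrial thioesterase, fell by 0.82 and its near-identical neighbour Acot1 was not called; their TPM added together was 6.60 and 6.63 with vehicle and 3.19 and 3.76 with LUP. Pdk4, Ucp3 and Cidec had at most 2 counts in any library and were below the filter, so no change could be detected there. This list shares Fabp4 and Cd36 with the uptake list and Acot1 and Acot2 with the thioesterases. It does not hold Acsl1 and Fabp3 of the uptake list, which rose 7.27-fold and 4.15-fold. The uptake list as a whole had 5 higher and 5 lower of 12 tested.

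The regulators split as well, with 4 higher and 6 lower of 16 tested. Pparg, the receptor for lipid handling, had 64.94 and 64.70 TPM with vehicle and 25.10 and 25.59 TPM with LUP, a fall of 1.22 on the log2 scale (edgeR adjusted p = 1.86e-12). Ppard, the other PPAR gene expressed here, rose by 0.22, and Ppara, the receptor that governs this pathway in liver, had at most 1 count in any library. Rxra, which encodes the partner receptor of the PPARs, fell by 0.11. Ppargc1a, which encodes PGC-1 alpha, had 30 and 28 counts with vehicle and 10 and 5 with LUP, whereas Ppargc1b rose by 0.54 from 3.08 and 3.30 TPM. Esrra, the estrogen-related receptor alpha gene, had a log2 change of 0.09 (95% interval -0.04 to 0.22, edgeR adjusted p = 0.234). Hif1a, the hypoxia-inducible factor gene, rose by 0.90 on the log2 scale. Over all settings 1 to 4 regulators rose and 4 to 7 fell.

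Control by malonyl-CoA, the inhibitor of CPT1A, was mixed. Mlycd, which breaks malonyl-CoA down, went from 15.22 and 14.87 to 8.13 and 8.62 TPM (log2 change -0.76, edgeR adjusted p = 2.05e-06). Acaca, which makes it, rose by 0.29, and Acacb, the form tied to mitochondria, had 7 to 11 counts per library. Of the AMP kinase subunits, Prkag1 rose by 0.28 and Prkaa1 by 0.18 on the log2 scale. Prkag2 fell by 0.31 and Prkab2, at a low level of 2.95 and 3.39 TPM with vehicle, by 0.89. The Prkaa1 call was kept under 6 of 14 alternatives. The list had 3 higher and 3 lower of 9, and over all settings 0 to 3 rose and 1 to 4 fell.

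Peroxisomal beta-oxidation, which shortens very long chains outside mitochondria, had 2 higher and 3 lower of 13. Acaa1a, the peroxisomal thiolase, rose by 0.78, from 74.62 and 74.47 to 112 and 122 TPM, whereas the acyl-CoA oxidase Acox3 fell by 0.53 and the bifunctional enzyme Hsd17b4 by 0.15. Of the thioesterases 4 of 7 rose and 1 fell, led by Acot7, which is active on long-chain acyl-CoA, with a 4.95-fold rise; Acot13 rose by 0.29 and Acot9 by 0.20 on the log2 scale, the latter called under 6 of 14 alternatives. Of the ketone body genes Oxct1, which activates acetoacetate for use as fuel, fell by 0.53 on the log2 scale, and Bdh1, the hydroxybutyrate dehydrogenase, rose from 17 and 14 counts to 45 and 39. Fatty acid synthesis had 4 higher and 1 lower of 10, and over all settings 1 to 4 rose and 0 to 2 fell. Acly rose by 0.15 and Elovl1 by 0.12 and Elovl5 fell by 0.14 on the log2 scale, but the call was kept under only 5 of 14 alternatives for Elovl1 and 7 for Elovl5. Me1, the cytosolic malic enzyme that makes NADPH, rose 4.69-fold.

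Mitochondrial genes outside the pathway went both ways: Ucp2 and Acot2 fell, as given above, while most of a list for import and porins rose. Of the 11 genes in that list, 9 rose and none fell (median log2 change 0.40), beside 27.1% of all tested genes called higher and 0 of the 10 fatty acid oxidation genes. The 11 include the citrate synthase gene Cs and the chaperonin gene Hspd1, which are neither import components nor porins and which both rose. Over all settings 8 to 9 of the 11 rose and 0 to 1 fell. Timm23, the inner-membrane import channel, went from 99.57 and 93.81 to 147 and 154 TPM, and Vdac2, an outer-membrane porin, from 234 and 227 to 290 and 280 TPM. Hspa9, the matrix chaperone, rose by 0.40 and the citrate synthase gene Cs by 0.63 on the log2 scale. No test of the difference between the lists was run.

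**Figure D4:**
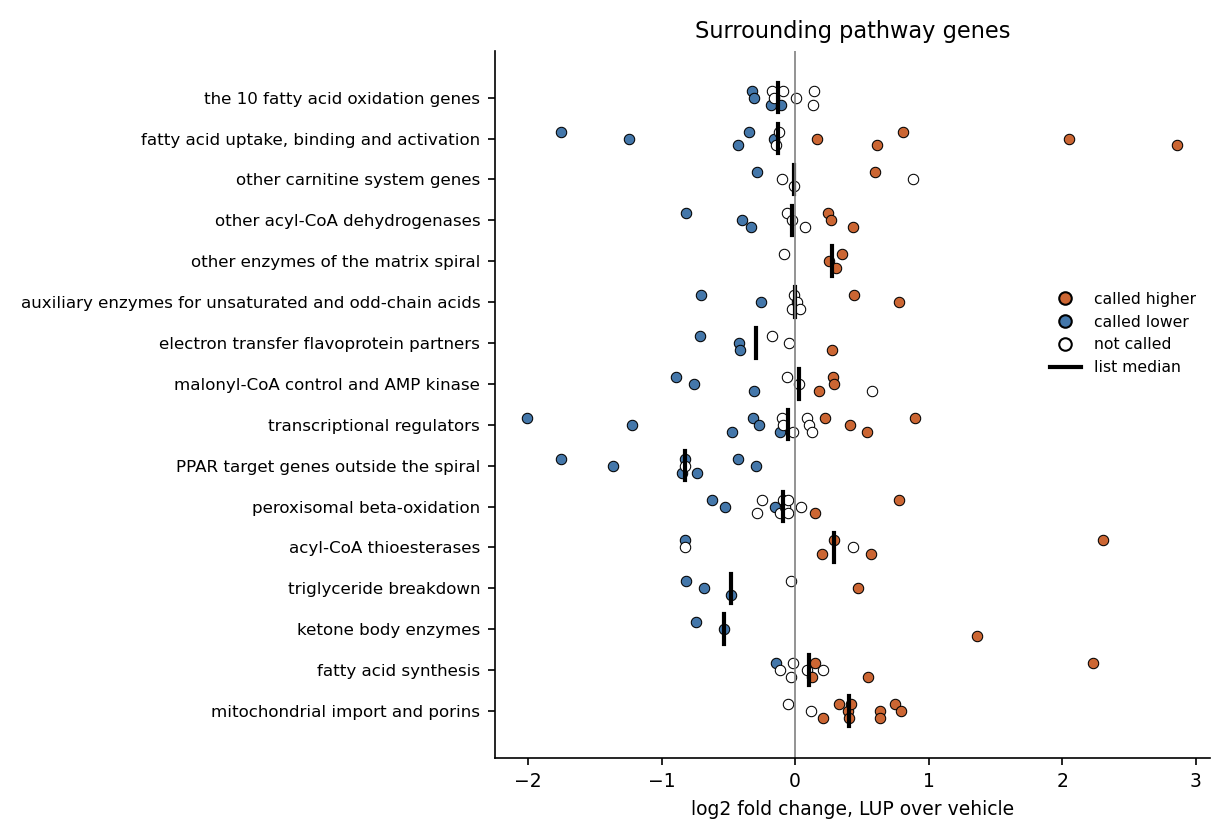
Log2 fold change of LUP over vehicle for each tested gene of the 10 members and of 15 surrounding lists; orange points were called higher, blue lower, open points not called, and the black bar is the list's median. The members lie between -0.32 and 0.14, a narrow band beside the PPAR targets, with a median of -0.82, and the uptake and activation genes, which reach from -1.75 to 2.86.

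Markers of other cells moved with the treatment in part. Summed over 8 neutrophil markers the level was 45.5 and 48.4 TPM with vehicle and 306 and 269 TPM with LUP, with 3 called higher and 1 lower of 4 tested, mostly through Mmp8 and S100a8, while S100a9 and Ly6g were at 0 in all 4 libraries. Over 7 T and NK cell markers it was 0.22 and 0.71 TPM with vehicle and 2.60 and 1.79 TPM with LUP. These sums rest on 3 and 8 counts with vehicle and 31 and 24 with LUP, and no T or NK cell marker entered the test. Over 8 mesothelial and fibroblast markers the level was 92.9 and 101 TPM with vehicle and 118 and 94.6 TPM with LUP. B cell markers summed to under 2 TPM, and of 5 eosinophil markers Epx, Prg2 and Ear1 were at 0 in all libraries. Siglecf, the eosinophil marker that carried nearly all of that list's level, had 6.60 and 5.6 TPM with vehicle and 0.99 and 0.90 TPM with LUP. The part of these cells in the changes above was not tested.

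The authors' deposited table gives its own comparison, with a fold of vehicle over LUP, since its sign was opposite to that of LUP over vehicle in all 2481 genes compared (adjusted p under 0.05 there and a log2 TPM change above 0.5 in size). Of the members, 3 had an adjusted p under 0.05 in the authors' deposited table: Acadl with 0.000162, Hadhb with 0.00983 and Hadha with 0.0285. For Cpt1a the authors' deposited table gives an adjusted p of 0.155.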

How the data were processed

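RNA of cultured mouse macrophages was sequenced in 4 libraries, 2 per group. Expected counts per gene, not scaled between libraries, and TPM per library were computed and deposited by the authors. The tools RSEM, StringTie, HISAT2 and fastp appear, per the submitters' processing notes, without versions or roles. Sources used here do not give the build or annotation. Log2 fold, adjusted p-value and the gene length (no sample value) are the authors' as deposited; the test behind the p-value is not given there.

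Expected counts were rounded and tested with edgeR 4.0.16 (quasi-likelihood, TMM scaling, default filter, treatment as the only term) in R 4.3.3, with Benjamini-Hochberg adjustment over all 13355 tested genes and calls at an adjusted p under 0.05. The test was also run on simulated counts with the same dispersion for every gene, which does not show how it performs on these data. Alternatives were edgeR with other scalings, filters, a replicate block or a library left out, DESeq2 1.42.0, and limma 3.58.1 on quantile-normalized log2 CPM or on log2 TPM with a pseudocount of 1 or 0.1, with a TPM minimum of 1 or none. Promoter windows came from RefSeq (GRCm38.p6) and exon overlaps from GENCODE M21.

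The members and the pathway lists were chosen with earlier results of these data known. Named from each list were up to 3 called genes with the highest mean TPM and, where fewer than 2 were called, up to 2 others; a gene this rule picks is not reported here. Acsl1, Acsl3, Acsl4, Acsl5, Fabp3, Cpt1b, Cpt1c, Echs1, Eci1, Etfa, Etfb, Ucp2, Angptl4, Acot1, Acot2, Pdk4, Ucp3, Cidec, Ppard, Ppara, Ppargc1a, Ppargc1b, Esrra, Mlycd, Acaca, Acacb, Prkab2, Me1, Cs, Hspd1 and Dvl2 were named outside this rule, after their values were seen.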

Additional observations from a re-analysis of the deposited data

How the results depend on the processing

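The number of genes called was 6785 and fell to 4212, 4314 and 3315 with limma on log2(TPM + 1), on log2(TPM + 0.1) and on log2(TPM + 1) without a filter. In the last of these 2 members and 48 pathway genes were called, against 4 and 80. Leaving out each library in turn gave 5854 to 6444 calls over all genes, 3 to 5 among the members, 67 to 76 in the lists and a ratio of the members' summed TPM, LUP over vehicle, of 0.835 to 0.869, against 0.852. The Cpt1a fall lost its call with DESeq2 (-0.10), without a filter on low counts (-0.10), with limma on log2(TPM + 1) (-0.22, with or without a filter) and log2(TPM + 0.1) (-0.22), and, of the libraries left out (-0.119 to -0.0928), in all but LUP replicate 1. With the replicate number as a block, 6606 genes and 3 members were called, and the Cpt1a change was -0.11 (edgeR adjusted p = 0.0848); the labels do not say that numbers pair libraries, and replicate differences of the groups correlated at -0.066 over genes. Hadhb lost its call in limma on log2(TPM + 1) without a filter (-0.28). Etfdh gained a call with library size alone (-0.19) and quantile normalization (-0.27), Acaa2 with quantile normalization (-0.20), Cpt2 without LUP replicate 2 (range -0.270 to -0.067 over libraries left out) and Acadvl without LUP replicate 1 (range 0.0414 to 0.2425). Acadm turned downward with library size alone (-0.0255), quantile normalization (-0.10) and limma on TPM (-0.16 with 1 and -0.17 with 0.1 as the pseudocount, -0.16 without a filter), with -0.0353 to 0.0571 over libraries left out. Acadvl turned to -0.0003 in all 3 fits on TPM, and Acadsb to -0.075, -0.0807 and -0.075. The cause of these shifts was not tested. The median of all genes shifted by -0.07 with quantile normalization and limma on log2(TPM + 1).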
